A study of Mus musculus with 3 samples.

Results

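The clustered histone genes encode the H2A, H2B, H3 and H4 proteins around which DNA is wrapped, and the linker histone H1. They were taken as every gene whose symbol starts with Hist1h, Hist2h, Hist3h or Hist4h and that has at least 1 protein-coding transcript in the annotation. This rule uses names only and gave 67 of 55536 gene entries, and it set no minimum of expression. RNA selected for poly(A) tails was sequenced from 3 libraries of mouse macrophages, primary cells grown from bone marrow of strain C57BL/6J. All 3 libraries are replicates of 1 group that had received 100 ng/mL of a stimulus for 480 minutes. The labels name the stimulus in 2 ways, as Lipid A in the description and as lipoprotein A in the treatment entry. No unstimulated library was analysed here, so levels and their spread are described and no response to the stimulus is measured. All 3 libraries carry the same donor entry, so the p-values below measure the spread between these samples, which may be technical. Sex and age were not collected, per the labels.

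In dividing cells these genes are switched on in S phase, when new DNA has to be packed. Their messages differ from nearly all other messages: they usually end just after a short stem-loop in the RNA, where the transcript is cut, and they carry no poly(A) tail. The stem-loop is bound by the protein Slbp. When such a gene is read through past the stem-loop to a poly(A) signal, or spliced to a distant exon, a tailed histone message can arise, and this is known from cells that have left the cell cycle. A poly(A)-selected library therefore keeps tailed histone messages and mostly loses the tail-less ones, so the levels below are not the total histone mRNA of these cells. In RNA from many cells, fewer cells that use a gene and less RNA per cell cannot be told apart.

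The letters of the stem-loop show what the members share. The pattern searched was the 16-letter histone stem-loop, with any base allowed at positions 3, 4, 10, 13 and 14 and, at the others, the letters shared by all of the capitals printed here. It was read on the sense strand of the longest annotated coding transcript of each gene (GENCODE M21, mm10). It was present in 43 of 67 members, against 0.0886% of 58665 other protein-coding transcripts. There were 6 forms, and 8 members are shown because together they cover all 6 forms and include 5 of the detected genes. Each line is 30 bases of the sense strand, 5′ to 3′, with the 16 stem-loop letters in capitals.
Hist3h2a: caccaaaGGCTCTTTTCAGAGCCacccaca
Hist2h2aa1: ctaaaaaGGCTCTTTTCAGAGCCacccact
Hist1h1c: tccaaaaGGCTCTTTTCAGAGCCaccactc
Hist1h3e: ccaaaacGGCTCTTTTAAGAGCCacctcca
Hist2h2ac: ccaaaaaGGCTCTTTTTAGAGCCaccaaat
Hist1h4h: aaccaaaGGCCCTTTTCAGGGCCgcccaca
Hist1h4i: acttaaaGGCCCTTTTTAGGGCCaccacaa
Hist1h4b: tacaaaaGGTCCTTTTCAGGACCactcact
The form of Hist3h2a, Hist2h2aa1 and Hist1h1c was the one in 25 members of the H1, H2A, H2B and H3 classes. The form of Hist1h3e was present in 6 members and that of Hist2h2ac in that member alone. H4 genes carried the other 3 forms: 7 members had that of Hist1h4h, 2 members had that of Hist1h4i, and 2 members had that of Hist1h4b. In 24 members these letters were not in the annotated transcript, and for many of these the annotation is short (median length 411 bases).

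Where the stem-loop lies in the annotated transcript differed between members. In 21 members it fell within the last 100 bases, a position it had in 0 of 58665 other transcripts. In 22 members the annotated transcript ran on beyond it, by 1643 bases in Hist3h2a, 840 in Hist1h1c and 330 in Hist1h4i. A poly(A) signal, the letters AATAAA or ATTAAA, lay in the last 50 bases of 17 of 67 members (25.4%). It did in 50.3% of the other transcripts, which again include several per gene. The ends of the 5 members that had such a signal and were detected are shown here, sense strand, with the signal in capitals.
Hist3h2a: gtatatgcccAATAAAataagagtacgtgt
Hist1h1c: gtatgcttctAATAAAaagcgtttagtttt
Hist1h4i: ttctgtttacATTAAAagtattctatgcta
Hist2h2be: tattattattAATAAAgttaccgattagtt
Hist1h4h: acattttcttATTAAAagagcgaacatgtg
Of the 17 members with this signal, 5 were detected in all 3 libraries by the rule given next, and of the 50 members without it, 3 were. These 3 were Hist1h2bc, Hist2h2aa1 and Hist2h2aa2. Detection was not split by this signal over all genes, so the difference is not shown to be particular to histone genes.

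Most clustered histone genes were near or at 0 in these macrophages, and 5 genes held nearly all of the signal. Levels are given as TPM, which are scaled to a fixed total per library and to transcript length and so can be compared between genes. A gene was called detected at 1 TPM or more in each of the 3 libraries. Only 8 of 67 members (11.9%) were detected by this rule, against 42.2% of all genes with a protein-coding transcript. The 8 were Hist1h1c, Hist1h2bc, Hist1h4h, Hist1h4i, Hist2h2aa1, Hist2h2aa2, Hist2h2be and Hist3h2a. The median of the members' mean TPM was 0.0533, against 0.280 over the 21901 genes with a protein-coding transcript. Summed over the 67 members, the level was 250.6 TPM in replicate 1, 225.5 in replicate 2 and 277.9 in replicate 3, or 251 ± 26.2 TPM (SD, n = 3). The 5 highest members made up 92.4% ± 0.613 (SD, n = 3) of this sum, and the other 62 together reached 19.1 ± 2.82 TPM (SD, n = 3). The share of the 5 highest was 93.1%, 92.2% and 91.9% in the 3 libraries, so it hardly moved between them.

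**Figure D1:**
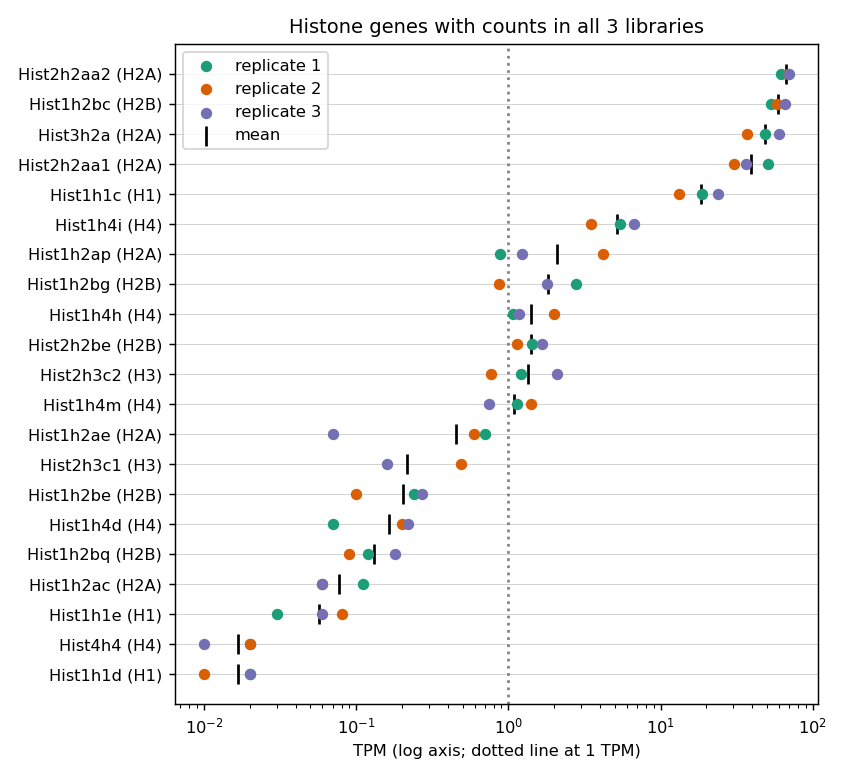
TPM of the 21 histone genes that had counts in all 3 libraries, 1 row per gene with its class in brackets; points are the 3 libraries, the black bar is their mean, and the axis is logarithmic. The 5 genes at the top lie between 13.2 and 69.7 TPM in every library, and the others lie below 7 TPM.

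The classes were far apart. H2A genes summed to 158 ± 14.4 TPM (SD, n = 3) over 18 genes, 62.7% of the whole. H2B genes, also 18, summed to 63.4 ± 6.40 TPM (SD, n = 3). The 6 genes of H1, the linker histone that binds where DNA enters and leaves the nucleosome, summed to 18.6 ± 5.20 TPM (SD, n = 3). For the 13 H4 genes the sum was 9.84 ± 2.37 TPM (SD, n = 3), and for the 12 H3 genes 1.82 ± 0.517 TPM (SD, n = 3). The lowest H2A library (141.3 TPM) was above the highest H2B library (70.5), the lowest H2B library (58.2) above the highest H1 library (23.8), the lowest H1 library (13.4) above the highest H4 library (12.4), and the lowest H4 library (7.82) above the highest H3 library (2.42). The order of the 5 classes was thus the same in each library. The place of H3 below H4 may depend on how reads of Hist2h3c1 were assigned. Gm20634, an annotated RNA outside the members, spans all of that H3 gene on the same strand. It was given 187, 142 and 506 counts, and the effect on the H3 sum was not tested. The 4 core histones H2A, H2B, H3 and H4 are used in equal numbers in the nucleosome, and the poly(A)-selected messages were not in equal amounts. In 4 of the 5 classes 1 gene supplied over 50% of the sum: Hist1h1c gave 99.3% of H1, Hist1h2bc 93.5% of H2B, Hist2h3c2 74.0% of H3 and Hist1h4i 52.8% of H4.

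**Figure D2:**
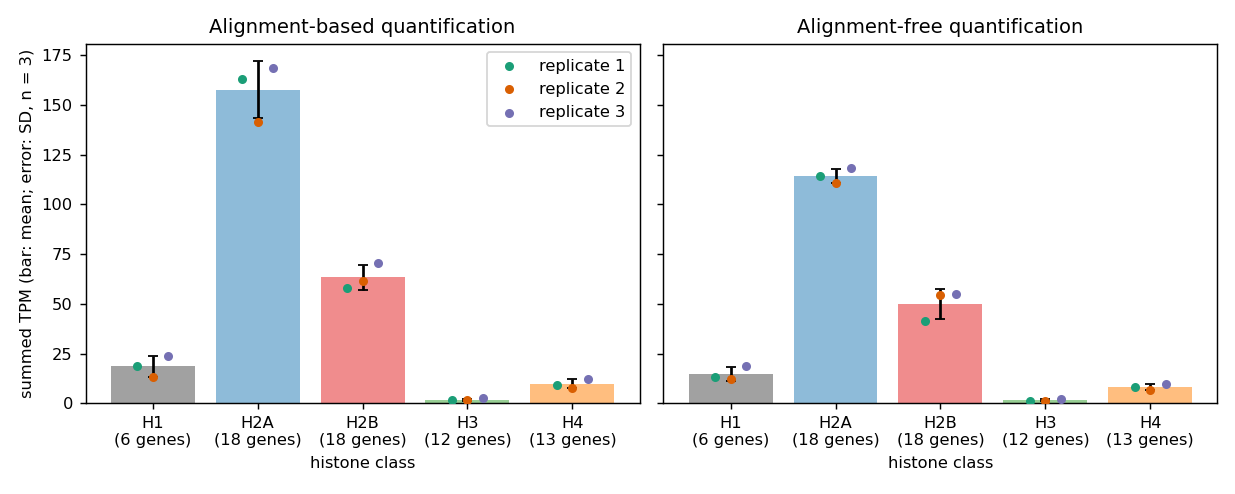
Summed TPM of each histone class in the alignment-based quantification (left) and the alignment-free one (right); bars are means of 3 libraries from a zero baseline, error bars are SD, and points are libraries. H2A is highest and H3 lowest on both sides, and the H2A bar is lower on the right (114 against 158 TPM).

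Among H1 genes only Hist1h1c stood out. It encodes H1.2, a linker histone of many tissues. It measured 18.6, 13.2 and 23.7 TPM in replicates 1, 2 and 3 (mean 18.5 ± 5.21, SD, n = 3). The libraries differed by more than counting error, with a biological coefficient of variation of 23.6% and a chi-square adjusted p of 2.071e-24 (Benjamini-Hochberg over 12404 genes). The other H1 genes with counts were Hist1h1e at 0.0567 ± 0.0252, Hist1h1a at 0.0533 ± 0.0473 and Hist1h1d at 0.0167 ± 0.00577 TPM (SD, n = 3). Hist1h1b and Hist1h1t, the latter a linker histone of the testis, had no counts.

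The H2A signal came from 3 genes. Hist2h2aa2 measured 61.7, 69.0 and 69.7 TPM in replicates 1 to 3, Hist2h2aa1 50.9, 30.5 and 36.4 TPM, and Hist3h2a 48.7, 36.8 and 59.7 TPM. Hist3h2a lies in a small cluster on chromosome 11 (chr11:58954685-58956830, + strand), away from the large one on chromosome 13. Its annotated transcript is 2146 bases long and holds the stem-loop letters far before its end, as printed above. Means were 66.8 ± 4.43, 39.3 ± 10.5 and 48.4 ± 11.5 TPM (SD, n = 3) for Hist2h2aa2, Hist2h2aa1 and Hist3h2a. The ranges of Hist3h2a and Hist2h2aa1 overlapped, with replicate 1 in the opposite order to the other 2. In the alignment-free values Hist2h2aa1 was above Hist3h2a (33.5, 33.4 and 47.9 TPM) in each library, so their order is not settled. Hist3h2a was lowest in replicate 2 and highest in replicate 3, by more than counting error (adjusted p 5.678e-68, chi-square test, Benjamini-Hochberg; biological coefficient of variation 20.8%). Trim17 is annotated across Hist3h2a on the same strand, and its own level was 0.23, 0.33 and 0.29 TPM.

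Further H2A genes were low. Hist1h2ap measured 0.88, 4.16 and 1.22 TPM, with replicate 2 highest. Its libraries differed beyond counting error (adjusted p 0.00186, chi-square test, Benjamini-Hochberg), on a mean of 10.4 counts. The counts were 3.48, 19.8 and 8, and without replicate 2 the gene fell under the minimum of 10 and was not tested. Its transcript shares a run of 452 bases with Hist1h2ao, which had no counts in either quantification, so reads inside that run fit both genes equally; 6.64% of the 31-base stretches of Hist1h2ap are found in no other gene. The lowest H2A genes with counts were Hist1h2ab at 0, 0.29 and 0 TPM and Hist1h2ac at 0.11, 0.06 and 0.06 TPM.

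Hist2h2aa1 and Hist2h2aa2 could be measured only as a pair. The whole 528-base transcript of Hist2h2aa2 (chr3:96239749-96240276, - strand) is identical to bases 59 to 586 of Hist2h2aa1 (chr3:96245497-96246082, + strand), so a read inside that run fits both genes equally. Neither gene had any stretch of 31 bases that is found in no other annotated gene. The authors quantified the same reads in 2 ways, from a transcriptome alignment and directly from the reads, and the 2 quantifications split the pair differently. In the alignment-based values Hist2h2aa1 took 45.2%, 30.7% and 34.3% of the pair's TPM, and in the alignment-free values 48.6%, 58.7% and 78.1%. The sum of the pair was 112.6, 99.5 and 106.2 TPM in the first and 78.5, 73.4 and 68.3 TPM in the second. Its coefficient of variation was 6.17% and 6.93%, against 26.7% and 17.3% for Hist2h2aa1 alone and 6.63% and 44.8% for Hist2h2aa2 alone. Which of the 2 genes was higher depended on the quantification in 2 of 3 libraries. The chi-square call for Hist2h2aa1 (adjusted p 6.313e-13) and the lack of one for Hist2h2aa2 (adjusted p 0.654) therefore describe how reads were assigned as well as how many there were. The deposited posterior SD, the spread of a count over resampled read assignments, was 10.8%, 10.7% and 7.63% of the count for Hist2h2aa1, and at most 0.240% for Hist3h2a. The strand setting of the counting is not given in the sources used here. An annotated RNA on the same strand, Gm20634, spans 529 bases of Hist2h2aa1 and all of Hist2h3c1 and measured 4.01, 2.25 and 5.90 TPM. It was given 187, 142 and 506 counts, against 290, 216 and 355 for Hist2h2aa1. How reads in the overlap were assigned was not tested, and the sum of the pair may depend on it too. The antisense Gm20633 and Gm20632 measured 0.37 to 0.67 TPM.

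**Figure D3:**
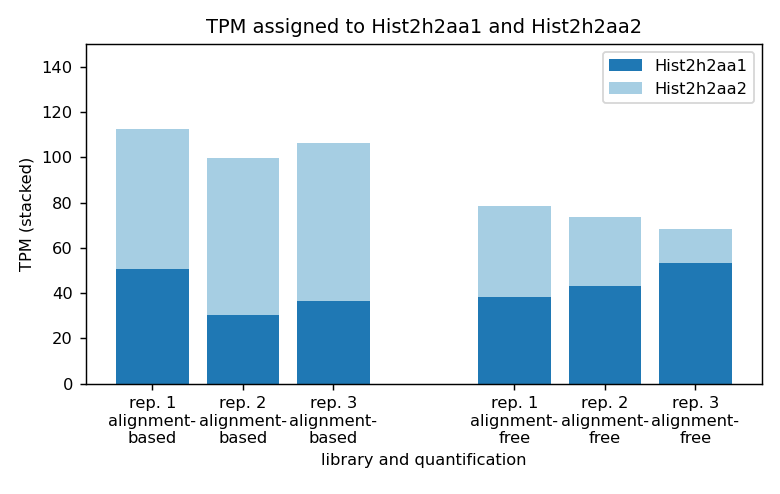
TPM assigned to Hist2h2aa1 (dark) and Hist2h2aa2 (light), stacked, in each of the 3 libraries; the left group of bars is the alignment-based quantification and the right group the alignment-free one. The bar heights lie between 99.5 and 112.6 TPM on the left and between 68.3 and 78.5 on the right, while the dark share goes from 30.7% to 78.1%.

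The H2B signal was that of Hist1h2bc, a core histone H2B gene. It measured 53.5, 58.3 and 66.0 TPM in replicates 1 to 3 (mean 59.3 ± 6.32, SD, n = 3). The range of Hist1h2bc overlapped those of Hist2h2aa2 and Hist3h2a. It lay above Hist1h1c in each library of both quantifications. Above Hist2h2aa1 it lay in each library of the alignment-based values, but only in replicate 2 of the alignment-free ones (36.3, 50.4 and 50.6 TPM for Hist1h2bc, 38.1, 43.1 and 53.3 TPM for Hist2h2aa1). The libraries differed beyond counting error (adjusted p 3.291e-06, chi-square test, Benjamini-Hochberg; biological coefficient of variation 15.7%), a call that was lost without replicate 3. The annotated transcript of Hist1h2bc (chr13:23684199-23692908, + strand) is spliced, which is unusual for this family: a first exon of 423 bases, an intron of 7554 bases and a second exon of 733 bases. Only 12 bases of the first exon follow the annotated CDS feature (the coding stretch as annotated), and the stem-loop letters are not in the spliced transcript. Its last poly(A) signal letters start 447 bases before the annotated end.

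Other H2B genes were at a few TPM or less. Hist1h2bg measured 2.77, 0.87 and 1.79 TPM and Hist2h2be 1.42, 1.13 and 1.67 TPM. Adjusted p-values were 0.0200 and 0.0282 (chi-square test, Benjamini-Hochberg). The call for Hist1h2bg was lost without replicate 1 and without replicate 2, and that for Hist2h2be in the alignment-free values and without replicate 2 or replicate 3. Hist2h2be has a 2620-base annotated transcript with 97.2% of its 31-base stretches found in no other gene, so its reads are seldom shared. Hist1h2bn measured 0, 0.25 and 0.45 TPM, and the lowest with counts were Hist1h2bh at 0.04, 0 and 0.09 TPM and Hist1h2br at 0, 0 and 0.08 TPM. Hist1h2be measured 0.24, 0.10 and 0.27 TPM in the alignment-based values, and no difference between its libraries was called (adjusted p 0.132, chi-square test, Benjamini-Hochberg).

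No H3 gene was detected by the 1 TPM rule. Hist2h3c2, which encodes the replication-coupled H3.2, measured 1.21, 0.77 and 2.07 TPM (mean 1.35 ± 0.661, SD, n = 3), lowest in replicate 2 and highest in replicate 3. Its adjusted p was 0.00215 (chi-square test, Benjamini-Hochberg) on a mean of 26.0 counts, and the call was lost without replicate 2 or replicate 3. Hist2h3c1 has no 31-base stretch of its own: all 1795 are also found in Gm20634, which overlaps it on the same strand. Hist2h3c1 measured 0, 0.49 and 0.16 TPM and had no counts in the alignment-free values. It was given 0.09, 17.8 and 7.77 counts, against 187, 142 and 506 for Gm20634. Whether Hist2h3c1 would be detected under another assignment of these reads was not tested. Below these came Hist1h3d at 0.0733 ± 0.0666, Hist1h3a at 0.0700 ± 0.121, Hist1h3f at 0.0367 ± 0.0635 and Hist1h3e at 0.0200 ± 0.0346 TPM (SD, n = 3), each with counts in 1 or 2 libraries.

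H4 was the class in which each gene had at least some counts, 13 of 13, and it was low throughout. Hist1h4i measured 5.41, 3.47 and 6.71 TPM (mean 5.20 ± 1.63, SD, n = 3), again lowest in replicate 2 and highest in replicate 3 (adjusted p 0.00210, chi-square test, Benjamini-Hochberg), a call that was lost without replicate 2. Its annotated transcript goes 330 bases past the stem-loop to an ATTAAA signal. Hist1h4h measured 1.07, 2.00 and 1.17 TPM, Hist1h4m 1.13, 1.41 and 0.74 TPM, and Hist1h4k 0.74, 0 and 2.09 TPM. These 3 genes rest on mean counts of 6.76, 3.52 and 1.81, under the minimum of 10 for the main test, and none was called when the minimum was 1. At the bottom were Hist1h4c at 0, 0 and 0.06 TPM and Hist4h4, the 1 member on chromosome 6, at 0.02, 0.02 and 0.01 TPM.

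In 24 members no library had a count. They were 2 H1 genes, 9 H2A genes (Hist1h2aa, Hist1h2ad, Hist1h2af, Hist1h2ag, Hist1h2ai, Hist1h2ak, Hist1h2an, Hist1h2ao and Hist2h2ab), 8 H2B genes (Hist1h2ba, Hist1h2bb, Hist1h2bf, Hist1h2bk, Hist1h2bl, Hist1h2bm, Hist1h2bp and Hist2h2bb) and 5 H3 genes (Hist1h3b, Hist1h3c, Hist1h3h, Hist1h3i and Hist2h3b). Hist1h2aa and Hist1h2ba, like Hist1h1t, are histone genes of the testis. The share without counts was 35.8%, close to the 33.7% of genes with a protein-coding transcript. A count of 0 limits the level only loosely in short genes: 3 counts would have made between 0.265 TPM (Hist1h1t) and 1.29 TPM (Hist1h2bl) in the library where that is highest, which covers counting error only. In the alignment-free values 22 of these 24 also had no counts. Of the 43 members with counts, 21 had them in all 3 libraries, 10 in 2 and 12 in 1.

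Length and level went together in part. Of the 49 members whose longest annotated coding transcript is 1000 bases or less, 24 had no counts, and of the 18 longer ones 0 had none. Detected were 4 of the 49 and 4 of the 18. The same split by length was not made over all genes, so it is not shown to be particular to histone genes. Short transcripts offer fewer places for a fragment to start, and mean fragment lengths were 258 to 289 bases, so the same TPM gives fewer counts in them. Among the 11 members that had 10 or more counts on average, 6 had over 50% of their TPM on annotated transcripts longer than 1000 bases in each library: Hist1h1c, Hist1h2bc, Hist1h2be, Hist2h2be, Hist2h3c2 and Hist3h2a. The same held for 82.7% of all 12404 genes with that count. Of the 67 members, 62 have a single annotated transcript, so this share is set by the annotation and does not show where the RNA ends.

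**Figure D4:**
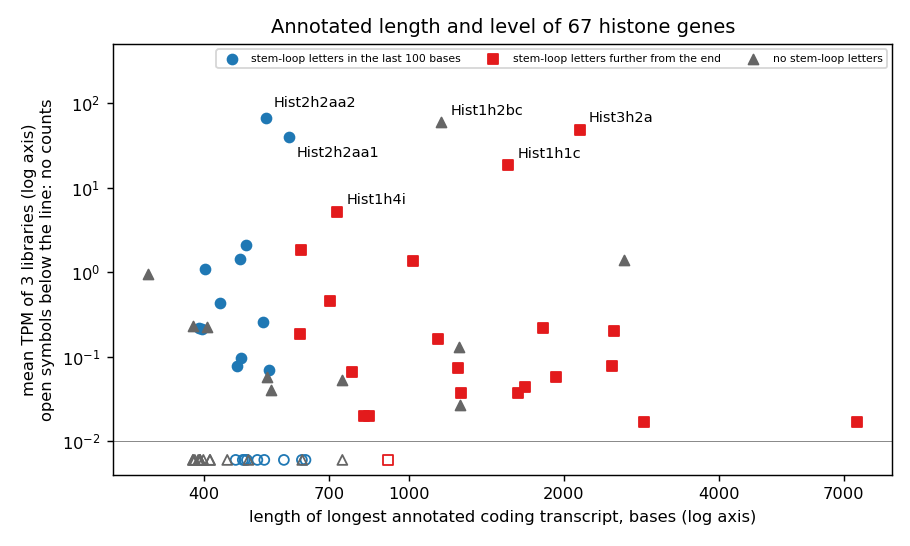
Length of the longest annotated coding transcript (bases, log axis) against the mean TPM of 3 libraries (log axis) for the 67 members; colour and shape give where the stem-loop letters lie, and open symbols below the line are the 24 members without counts. The highest members are found both among short transcripts that end at the stem-loop (Hist2h2aa1 and Hist2h2aa2) and among longer ones (Hist1h2bc, Hist3h2a and Hist1h1c).

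Grouped by where the letters lie, the 21 members with the stem-loop in the last 100 bases summed to 112 ± 4.24 TPM (SD, n = 3), of which the Hist2h2aa1 and Hist2h2aa2 pair made 106 ± 6.55. The 22 members whose annotation runs further on summed to 76.9 ± 19.2 TPM, and the 24 without the letters to 62.4 ± 8.06 TPM (SD, n = 3), nearly all of it Hist1h2bc. In these alignment-based values the middle group was lowest in replicate 2 (57.1 TPM) and highest in replicate 3 (95.4), while the first group stayed between 108.3 and 116.6 TPM.

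H2A and H2B genes often sit head to head and share a start region. There were 12 such pairs, with starts under 500 bases apart. In 10 pairs neither gene was detected, and in the other 2 only the H2B gene was. Undetected pairs went both ways. The H2A gene Hist1h2ap, at 0.88, 4.16 and 1.22 TPM, was above its partner Hist1h2br, at 0, 0 and 0.08 TPM. The H2B gene Hist1h2bg, at 2.77, 0.87 and 1.79 TPM, was above its partner Hist1h2ae, at 0.70, 0.59 and 0.07 TPM. Hist1h2bc, at 53.5 to 66.0 TPM, lies 250 bases from Hist1h2ac, at 0.06 to 0.11 TPM. Hist2h2be, at 1.13 to 1.67 TPM, lies 238 bases from Hist2h2ac, which measured 0, 0 and 0.78 TPM. The region between Hist1h2ac and Hist1h2bc is printed because the largest such difference lies across it. It is the RefSeq promoter window of Hist1h2ac (GRCm38.p6, chr13:23683910-23684209, - strand, 250 bases before to 50 after the start), and the annotated first base of Hist1h2bc lies inside it at 23684199. Capitals mark 3 motifs on either strand: TATAAA, which places the start of transcription, CCAAT, an activating element of many promoters, and the octamer ATTTGCAT, bound by Pou2f1.
Hist1h2ac: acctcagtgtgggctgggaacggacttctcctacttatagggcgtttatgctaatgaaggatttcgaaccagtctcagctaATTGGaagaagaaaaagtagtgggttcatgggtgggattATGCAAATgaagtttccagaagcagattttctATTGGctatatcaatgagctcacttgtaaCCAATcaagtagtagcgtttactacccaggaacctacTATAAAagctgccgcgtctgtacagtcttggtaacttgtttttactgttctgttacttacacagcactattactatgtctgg
All 3 motifs were found in this 1 window that the pair shares. Its only TATAAA lies near the start of Hist1h2ac, at the other end of the window from the start of Hist1h2bc. Only the exact letters were searched, so near matches, such as the cttatag near the start of Hist1h2bc, are not marked. RefSeq windows were matched for 62 of 67 members, giving 63 windows of 300 bases. TATAAA was in 55.6% of them, against 13.6% of all 32851 windows. CCAAT was in 85.7%, against 37.4%. The octamer was in 22.2%, against 1.74%, and split by class: 7 of 18 H2A windows and 7 of 17 H2B windows held it, and 0 of 6 H1, 0 of 10 H3 and 0 of 12 H4 windows. CCAAT was in each H1, H2A, H2B and H3 window and in 3 of 12 H4 windows. A match is a description of the letters and does not show binding, and windows of a head-to-head pair overlap.

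By place, the 54 members on chromosome 13 summed to a mean of 93.4 TPM, the 10 on chromosome 3 to 109 TPM and the 2 on chromosome 11 to 48.6 TPM. In the alignment-free values the means were 74.4, 76.0 and 38.4 TPM. In the alignment-based values the 10 genes on chromosome 3, among them the Hist2h2aa1 and Hist2h2aa2 pair, thus held more signal than the 54 on chromosome 13. In the alignment-free values the 2 means were close and the order differed between libraries, so it is not settled there.

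The 3 libraries differed in these genes. A mean of 10 or more counts was reached by 11 of 67 members (16.4%), against 50.8% of genes with a protein-coding transcript. Of these 11, 9 (81.8%) varied between libraries beyond counting error, against 70.9% of the 12404 genes tested, so a call is common in these data. The exceptions were Hist2h2aa2 and Hist1h2be, and in the alignment-free values Hist2h2be and Hist1h2be. Without replicate 2, 4 of 10 members tested were called, against 41.9% of genes; these were Hist1h1c, Hist1h2bc, Hist2h2aa1 and Hist3h2a. TPM was highest in replicate 3 for 8 of 11 members, against 24.2% of genes tested. It was highest in replicate 1 for 2 members (30.6% of genes tested) and in replicate 2 for 1 member, Hist1h2ap (45.2%). The alignment-free values and TMM-scaled counts gave the same numbers, 2, 1 and 8. Libraries differed in depth, with 26589042, 34344922 and 48356527 expected counts on genes in replicates 1 to 3, of which histone members held 3608, 4025 and 7684.

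Replicate 2 stood apart in 2 other measures. Summed levels of 6 RNAs that carry no poly(A) tail, such as Rn7sk, were 273, 1753 and 498 TPM in replicates 1 to 3, highest in replicate 2 for all 5 that could be tested. Among these, Rn7s1 and Rn7s2 had identical values (96.2, 703.6 and 154.9 TPM each), so they are not separate observations. Both together made up most of the sum in replicate 2. Terc, the sixth, had no counts. The 10 neutrophil markers summed to 23.2, 422 and 21.5 TPM, also highest in replicate 2, and 2 of the 10 were detected in each library. The summed histone level was lowest in replicate 2 in the alignment-based values, and in replicate 1 in the alignment-free ones (178.0, 185.3 and 203.3 TPM). The part of these differences in the histone values was not tested. All 8 macrophage markers were detected in each library, and 0 of 6 progenitor, 0 of 6 erythroid, 0 of 5 B cell and 0 of 5 T cell markers were. Of 5 testis germ cell markers 1 was, Ddx4, at 4.17, 3.10 and 5.10 TPM.

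Genes of histone biology outside the clusters were at higher levels by the median of each list, though the lists also held low genes. Poly(A) selection mostly loses tail-less clustered messages, so total mRNA is not compared here. Of 11 histone variant genes outside the 67 members, listed here as replication-independent, 9 were detected, with a sum of 1734 ± 221 TPM (SD, n = 3). H3f3b measured 818.5, 725.5 and 711.7 TPM and H3f3a 757.9, 542.0 and 492.1 TPM; both encode H3.3, which replaces H3 in chromatin outside S phase. H2afz, the gene of H2A.Z, measured 202.8, 144.6 and 186.5 TPM. The lowest was H1fx at 0.48, 0 and 0.40 TPM. The levels of H3f3a and H3f3b in each library were above the sum of all 67 clustered genes.

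Of 17 measured genes of histone message synthesis and 3′ end processing, 15 were detected, and the median level was 17.5 TPM. The highest were Mif4gd, an Slbp partner in translation, at 55.8 ± 4.37 TPM, Srrt at 51.1 ± 5.80 TPM and Lsm10, of the U7 particle that guides the cut, at 31.8 ± 2.36 TPM (SD, n = 3). Zfp473, another factor tied to that cut, was lowest at 0.0633 ± 0.0351 TPM (SD, n = 3). Slbp itself, outside the naming rule and given because it binds the stem-loop, measured 24.8, 22.0 and 20.4 TPM. Of 17 histone chaperones, which carry histones to and from DNA, 16 were detected. Daxx, which deposits H3.3, was highest at 451 ± 27.7 TPM, followed by Npm1 at 102 ± 12.8 and Nap1l1 at 55.0 ± 9.27 TPM (SD, n = 3). Chaf1a, a subunit of the factor that loads H3 behind the replication fork, was lowest at 0.987 ± 0.465 TPM (SD, n = 3).

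Of 22 genes of DNA replication, 17 were detected, and the median level was 2.84 TPM. Pcna, the sliding clamp, measured 203.3, 317.5 and 306.2 TPM and stood far above the next, the helicase subunit Mcm6 at 18.8 ± 6.19 and the licensing factor Cdt1 at 12.4 ± 1.96 TPM (SD, n = 3). Cdc6, needed to load the helicase, was lowest at 0.177 ± 0.158 TPM (SD, n = 3). Of 14 genes of G2 and mitosis, 3 were detected, and the median level was 0.643 TPM. Tpx2 measured 71.1, 41.7 and 76.5 TPM, Cdk1 8.14 ± 4.02 and the proliferation marker Mki67 3.23 ± 1.88 TPM (SD, n = 3), and the kinetochore gene Cenpf was lowest at 0.0167 ± 0.00577 TPM (SD, n = 3). The first 3 of these were the detected ones. In replicate 2, 16 of the 22 replication genes and 9 of the 11 tested mitosis genes had their highest TPM, against 45.2% of genes tested.

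**Figure D5:**
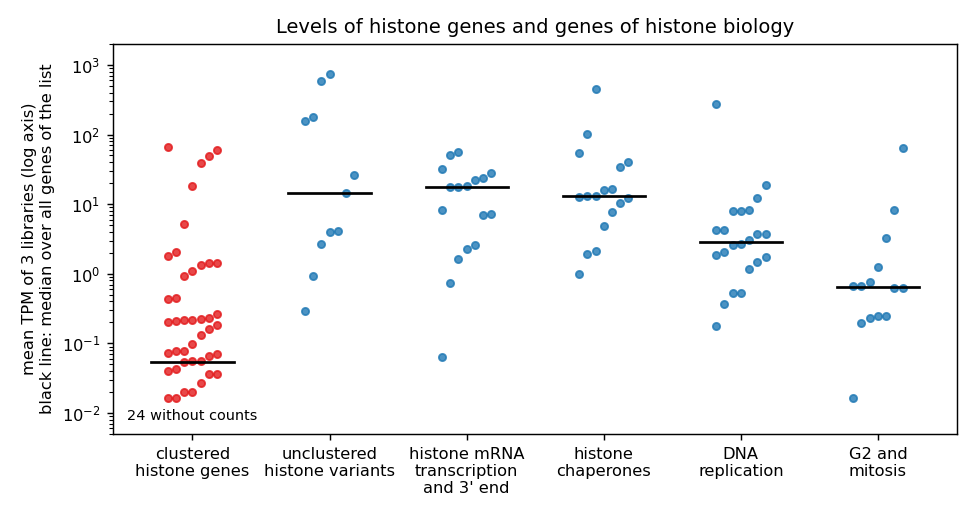
Mean TPM of 3 libraries (log axis) for the 67 clustered histone genes (red) and 5 lists of related genes (blue); each point is a gene and the black line is the median over all genes of the list. The clustered genes have the lowest median (0.0533 TPM), with 24 genes without counts, and the variant, processing and chaperone lists have medians between 13 and 17.5 TPM.

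The 2 quantifications agreed to within 2-fold, on the mean of 3 libraries, for 9 of the same 11 members. The difference is given as log2 of the ratio of alignment-based to alignment-free TPM, each with 0.1 TPM added. Hist2h2aa2 was higher in the first by 1.34 ± 0.810 (SD, n = 3), a direction shared by 2.32% of the genes tested at 2-fold. Hist1h2be was lower in the first, at -1.36 ± 0.427 (SD, n = 3), as were 1.44% of genes. For Hist1h2be the difference lay in a transcript annotated as not coding: the alignment-free values put 24.1, 24.4 and 45.7 counts on it, and the alignment-based ones 0, 0 and 2. Next in size came Hist1h4i at 0.42 ± 0.226, Hist1h2bc at 0.38 ± 0.174, Hist2h3c2 at 0.35 ± 0.106 and Hist1h1c at 0.34 ± 0.183 (SD, n = 3). These lie near the median of all genes tested, which was 0.35, 0.07 and 0.21 in replicates 1 to 3. Without replicate 3 neither was called: the difference of Hist2h2aa2 was 0.90, under 2-fold, and that of Hist1h2be stayed at -1.38 but its mean of 7.23 counts fell under the minimum of 10.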

How the data were processed

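Poly(A)-selected RNA was sequenced in 3 libraries of 1 group. The deposited readme names mm10 and GENCODE M21 as assembly and annotation. Neither the programs nor their versions are given in the sources used here. In the gene tables, derived from a transcriptome alignment, expected counts are fractional and unscaled per the file headers. TPM there is scaled per effective length to a fixed total, per the file headers. The deposited percent values give each transcript's share of its gene. The authors' second quantification started from the reads and holds estimated counts and TPM per transcript, summed here per gene.

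The members and gene lists were chosen with earlier results of these data known. Counts were rounded and set against TMM-scaled totals (edgeR 4.0.16, R 4.3.3) by a chi-square test (2 degrees of freedom) wherever the mean was 10 counts or more, with Benjamini-Hochberg adjustment over every gene tested and a threshold of 0.05. Biological coefficients of variation came from edgeR with an intercept only. The test was checked on simulated Poisson counts, which do not cover reads shared between near-identical members or spread beyond counting error. Named genes are the 4 highest and 2 lowest above 0 of each class, members on long transcripts, the 6 largest differences between quantifications, and the 3 highest and the lowest of each related list. Of those lists, Cpsf3l and Zcchc6 were not matched. Other software was DESeq2 1.42.0 (size factors only), Python 3.11.15, pandas 2.3.3, scipy 1.17.1 and matplotlib 3.10.9. Alternatives covered the quantification, length scaling, count minimum, thresholds and each library left out.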

Additional observations from a re-analysis of the deposited data

How the results depend on the processing

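A detection rule of 0.5 TPM gave 12 detected members and one of 5 TPM gave 5. In the alignment-free values the summed TPM was 188.9 over all members, 114.4 for H2A and 50.1 for H2B, and dividing by annotated in place of effective length gave 221.1, 128.7 for H2A and 6.59 for H4. A fold of 4 left 0 members on which the quantifications differ, and a pseudocount of 1 TPM left 1. A mean count of at least 1 gave 12 members mostly on long transcripts and 7 highest in replicate 2. Leaving out each library in turn gave 9 to 10 detected members, sums of 238 to 264.2 TPM over all members, 16 to 21.2 for H1, 152.1 to 165.8 for H2A, 59.8 to 66 for H2B, 1.52 to 1.98 for H3 and 8.54 to 10.9 for H4, and 5 to 7 members mostly on long transcripts. It gave 4 to 9 varying members, with 4 without replicate 2, and 0 to 3 members on which the quantifications differ, with 0 without replicate 3. In that last setting Hist1h2be kept its difference (-1.38) and fell under the count minimum. The other causes were not tested. Centring on the median of all genes, chosen after seeing the data, again gave 2 such members. No paired analysis was possible because all 3 libraries form 1 group. Reads of near-identical members limit single-gene values, and depth limits the members with few counts.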
